A study of Homo sapiens with 18 samples.

Results

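The metallothioneins and zinc transport genes described here are 10 genes chosen by symbol from the 60623 genes of the deposited count table: the metallothioneins MT1X, MT2A, MT1F and MT1E, the transcription factor MTF1, the zinc exporters SLC30A1 and SLC30A5, and the zinc importers SLC39A10, SLC39A6 and SLC39A14. RNA was sequenced from HEK-293E cells, a single human embryonic kidney cell line, in 18 libraries that fall into 6 groups of 3. Cells were kept overnight in medium with 0.1% fetal bovine serum and were then either left starved or returned to growth medium with 10% serum for 1 h or 4 h. In 3 groups cells were starved, 1 h fed or 4 h fed and received Torin1, an ATP-competitive inhibitor of the kinase mTOR, and in the other 3 groups they were in the same states without it. The labels state neither how much Torin1 was used and for how long, nor whether the 3 libraries of a group came from separate cultures. P-values therefore measure only how far these libraries spread, which may be technical.

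The list was drawn up with earlier results of these data known, in which MT1X, MT2A, MT1F and SLC39A10 had been named for the feeding comparisons. Levels across feeding are therefore given as a description with no test. Of the 10 genes, the 9 that passed a filter on low counts were tested for Torin1 within each feeding state. These comparisons share the starved and fed libraries with the feeding comparisons, so they are not independent of how the genes were chosen. A level is given in CPM, counts relative to the library total after TMM scaling (trimmed mean of M values), and a mean is given with its SD over 3 libraries. Totals ranged from 10510689 to 13690035 counts, and the limit set by a count of 0 (3 counts, for counting error alone) lay between 0.219 and 0.285 CPM in a library. Of the 10 genes, 9 passed the filter on low counts, and MT1X and MT1F had under 10 counts in every starved library without Torin1, so that they passed through the other groups. MT1E did not pass, with 1 count in a starved library and 0 in the other 17 libraries. Of the markers of the line, all 5 kidney progenitor genes and all 3 neuronal intermediate filament genes passed the filter, while 5 of 6 mature kidney markers, 3 of 4 immune markers and 4 of 4 endothelial markers stayed under 1 CPM in every library. The summed neuronal filament level was 180 to 209 CPM in 4 h fed cells with Torin1 and 342 to 350 CPM in 4 h fed cells without it, and 187 to 212 CPM in starved cells with Torin1 and 229 to 294 CPM in starved cells without it. Of 5 fibroblast markers 4 passed the filter and 0 stayed under 1 CPM in every library, and their summed level ranged from 8.40 to 43.2 CPM over all libraries. The summed kidney progenitor level was 53.05 to 61.53 CPM in starved cells with Torin1 and 69.53 to 73.28 CPM without it. With and without Torin1 it was 49.12 to 53.46 and 59.41 to 68.07 CPM in 1 h fed cells, and 47.09 to 58.73 and 64.08 to 65.57 CPM in 4 h fed cells. The part of these marker sums in the results that follow was not tested.

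Metallothioneins are small cysteine-rich proteins that bind zinc and copper and buffer their free levels in the cell. When free zinc is high, the zinc-finger factor MTF1 binds metal response elements in the promoters of metallothionein genes and of SLC30A1, which encodes ZnT1, the exporter of the plasma membrane. Transporters of the ZnT (SLC30) family move zinc out of the cytosol, to the outside or into organelles, and those of the ZIP (SLC39) family move it into the cytosol.

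RefSeq promoter sequence (GRCh38.p14) was used for MT1X, MT2A, MTF1, SLC30A1, SLC30A5, SLC39A10 and SLC39A6. Of these, MT1X, MT2A and SLC30A1 had the widest ratio between their highest and lowest group means, and their sequences are shown because the metal response element can be read in them. The 250 bases upstream of the RefSeq start are printed 5′ to 3′ on the gene's strand, with capitals marking each match to the core of the metal response element, searched as TGCACNC or TGCGCNC on both strands. MT1X is at chr16:56682220-56682469 on the plus strand, MT2A at chr16:56608334-56608583 on the plus strand and SLC30A1 at chr1:211579162-211579411 on the minus strand.
MT1X: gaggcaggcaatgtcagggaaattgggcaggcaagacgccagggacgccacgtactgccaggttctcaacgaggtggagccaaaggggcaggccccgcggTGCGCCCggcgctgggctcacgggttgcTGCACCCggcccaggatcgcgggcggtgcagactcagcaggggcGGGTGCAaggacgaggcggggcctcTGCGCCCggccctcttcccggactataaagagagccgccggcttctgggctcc
MT2A: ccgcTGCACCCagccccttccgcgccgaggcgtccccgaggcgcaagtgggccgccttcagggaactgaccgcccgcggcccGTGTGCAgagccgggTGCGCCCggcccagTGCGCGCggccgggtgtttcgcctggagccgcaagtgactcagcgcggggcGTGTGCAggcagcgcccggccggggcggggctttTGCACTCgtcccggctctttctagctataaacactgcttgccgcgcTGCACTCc
SLC30A1: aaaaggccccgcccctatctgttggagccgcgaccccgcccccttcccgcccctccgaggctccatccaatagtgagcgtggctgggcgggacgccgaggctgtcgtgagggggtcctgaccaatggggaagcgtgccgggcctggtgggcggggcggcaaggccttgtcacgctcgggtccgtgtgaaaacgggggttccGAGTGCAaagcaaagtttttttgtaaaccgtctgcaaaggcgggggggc

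The MT1X promoter held 4 matches, at 150, 122, 78 and 53 bases upstream of the start. The MT2A promoter held 7, between 246 and 8 bases upstream, and the SLC30A1 window held 1, at 49 bases. RefSeq and GENCODE starts differ. In GENCODE, SLC30A1 starts at chr1:211578742 on the minus strand. Its whole window lies upstream of that position and does not reach it, so the sequence next to the GENCODE start was not searched. The windows of MT2A, SLC30A5 and SLC39A10 lie inside their GENCODE genes. No 2 matches overlapped. SLC39A6 held 1 match at 17 bases, and no match was found in the windows of MTF1, SLC30A5 and SLC39A10. Of 35116 RefSeq promoter windows of the same length, 24.8% held at least 1 match, 0.370% held at least 4 and 0.0313% held at least 7. A match is a run of letters and was not measured as a bound site.

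**Figure D1:**
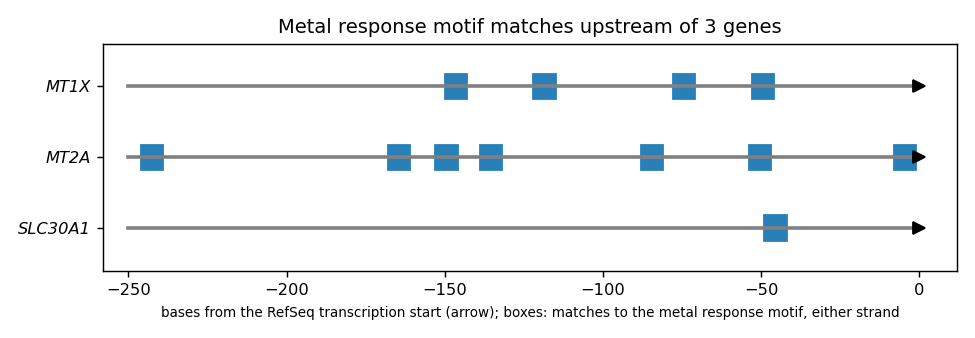
Positions of matches to the metal response motif in the 250 bases upstream of the RefSeq start of MT1X, MT2A and SLC30A1; the x axis is distance from the start in bases and each box is 1 match on either strand. MT1X has 4 boxes, MT2A has 7 and SLC30A1 has 1.

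MT1X was 2.68-fold higher with Torin1 than without it in starved cells and 5.87-fold lower with Torin1 in 4 h fed cells. MT2A was 1.71-fold higher with Torin1 in 1 h fed cells and 3.98-fold lower with Torin1 in 4 h fed cells, and MT1F was 4.26-fold higher with Torin1 in 1 h fed and 2.72-fold higher in starved cells. MT1X in 1 h fed cells, MT2A in starved cells and MT1F in 4 h fed cells did not pass the test for Torin1. MTF1, SLC30A1 and the 3 ZIP genes were lower with Torin1 in all 3 feeding states. In such bulk RNA, fewer cells that express a gene and less RNA per cell cannot be told apart. Across the 9 genes tested, 3 were called higher and 5 lower with Torin1 in starved cells, where 63.5% of all 16414 genes tested were called (33.9% higher and 29.6% lower). The counts were also 3 higher and 5 lower in 1 h fed cells, where 63.1% of all genes were called (33.2% higher and 29.9% lower). In 4 h fed cells 0 were higher and 7 lower, where 56.0% of all genes were called (27.4% higher and 28.6% lower). The quasi-likelihood test of edgeR gave 0 higher in 4 h fed cells at an unadjusted p under 0.05 as well, and the DESeq2 Wald test and limma-voom called 0 higher. The groups with and without Torin1 did not overlap for 7 of the 9 genes in starved cells, 7 in 1 h fed cells and 8 in 4 h fed cells, where 68.5%, 67.1% and 60.5% of all genes tested did not overlap. Over the 9 genes, the median log2 fold change with Torin1 was −0.75 in starved, −0.49 in 1 h fed and −0.87 in 4 h fed cells, beside 0.09, 0.06 and 0.02 over all genes tested. When libraries were scaled by total counts, the median over all genes shifted by 0.14, 0.11 and 0.16 against TMM. In 4 h fed cells it gave 1 higher and 5 lower of the 9 genes, and 62.6% of the calls over all genes were then higher, against 49.0% with TMM.

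**Figure D2:**
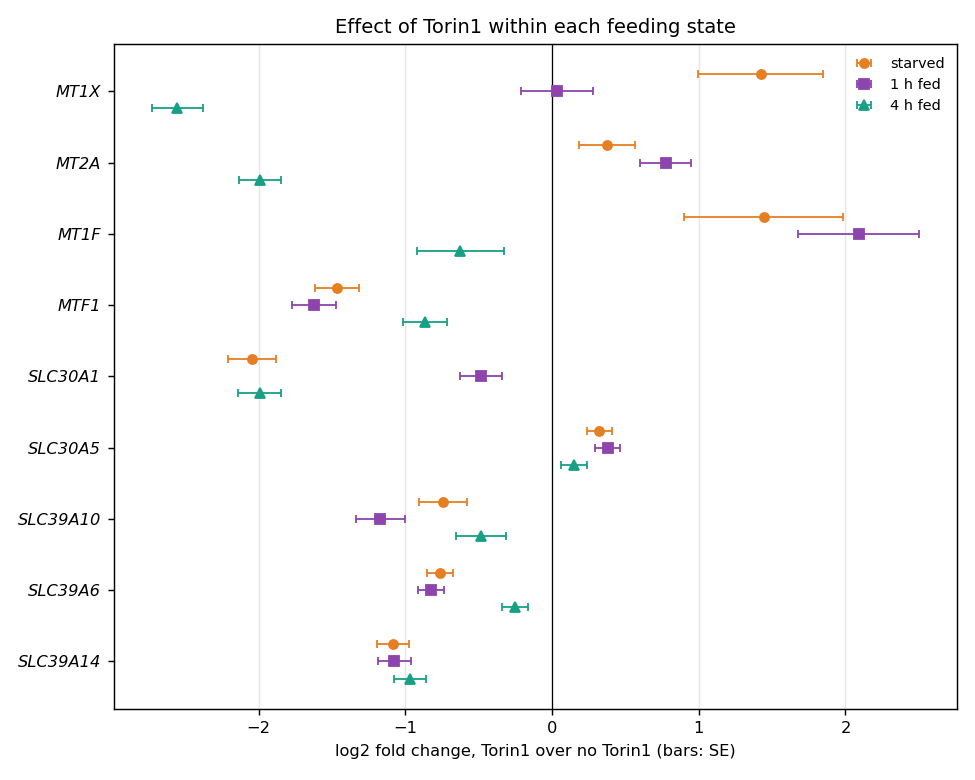
The log2 fold change of Torin1 over no Torin1 (x axis, bars give the SE) of 9 genes in starved (circles), 1 h fed (squares) and 4 h fed cells (triangles), each from 3 libraries against 3. The points of MT1X lie at 1.42 in starved and −2.55 in 4 h fed cells, and those of MTF1 and SLC39A14 lie below 0 in all 3 states.

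MT1X had the widest range of the metallothioneins. In starved cells it stood at 1.11, 1.12 and 1.76 CPM with Torin1, against 0.680, 0.418 and 0.367 CPM without it, from 14 to 20 and 4 to 7 counts a library. In 1 h fed cells the values were 4.36, 3.78 and 2.59 CPM with Torin1 and 2.11, 5.0 and 3.22 CPM without it. In 4 h fed cells they were 11.2, 14.3 and 12.4 CPM with Torin1, against 76.2, 70.0 and 76.7 CPM without it. Every starved library with Torin1 was above every starved library without it, the 1 h fed groups overlapped, and every 4 h fed library with Torin1 was far below every 4 h fed library without it. The 1 h fed values include MT1X-204, annotated as an intron-retaining transcript. It held 4.35% to 45.8% of the MT1X isoform counts without Torin1 and 0% to 4.44% with it. The spliced MT1X-201 held 44.1% to 95.7% without Torin1 and 92.2% to 97.2% with it. The overlap and the test in 1 h fed cells are therefore of all MT1X isoforms together. The spliced MT1X-201 alone was not tested for Torin1. Torin1 gave a log2 fold change of 1.42 ± 0.43 (SE) in starved cells (adjusted p = 0.00460), 0.03 ± 0.24 in 1 h fed cells (adjusted p = 0.918) and −2.55 ± 0.17 in 4 h fed cells (adjusted p = 3.84e-13), with edgeR's quasi-likelihood test and Benjamini-Hochberg adjustment over all genes. Set in order of mean level, the 6 groups of MT1X ran from starved through starved with Torin1, 1 h fed, 1 h fed with Torin1 and 4 h fed with Torin1 to 4 h fed, and of neighbours in that order only the 1 h fed groups overlapped.

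MT2A, the most abundant metallothionein of starved cells per length, stood at 6.47, 5.61 and 8.69 CPM in starved cells with Torin1, against 5.64, 4.76 and 5.60 CPM in starved cells without it. The 1 h fed values were 15.3, 11.6 and 9.64 CPM with Torin1 and 8.17, 7.12 and 5.99 CPM without it. The 4 h fed values were 19.9, 24.8 and 22.6 CPM with Torin1, against 95.1, 90.3 and 82.6 CPM without it. The starved groups overlapped, whereas all 1 h fed libraries with Torin1 were above and all 4 h fed libraries with Torin1 below those without it. On the log2 scale the change with Torin1 was 0.37 ± 0.19 (SE) in starved cells (adjusted p = 0.0900), 0.77 ± 0.17 in 1 h fed cells (adjusted p = 2.56e-04) and −1.99 ± 0.14 in 4 h fed cells (adjusted p = 1.10e-12). With total counts, or without replicate 2 of starved cells with Torin1, the value in starved cells passed the threshold (0.51 and 0.50).

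MT1F had few counts in starved cells, at 0.557, 1.20 and 1.32 CPM with Torin1 and 0.389, 0.0836 and 0.643 CPM without it, from 8 to 15 and 1 to 7 counts. In 1 h fed cells it stood at 1.80, 4.29 and 3.45 CPM with Torin1 and 1.29, 0.509 and 0.447 CPM without it, and in 4 h fed cells at 5.98, 7.54 and 6.99 CPM with Torin1, against 10.9, 10.9 and 9.84 CPM without it. The starved groups overlapped, the 1 h fed libraries with Torin1 were all higher and the 4 h fed libraries with Torin1 all lower. Its log2 fold change was 1.44 ± 0.54 in starved cells (adjusted p = 0.0215), 2.09 ± 0.41 in 1 h fed cells (adjusted p = 5.51e-05) and −0.63 ± 0.30 in 4 h fed cells (adjusted p = 0.0747). The call in starved cells was lost without replicate 2 or 3 of starved cells with Torin1 (1.30 and 1.23), without replicate 2 of starved cells (0.94) and with limma-voom (1.57). With only the groups compared, MT1F did not pass the filter in starved cells and was not tested there. In 1 h fed cells it had 21 to 51 counts with Torin1 and 5 to 14 without it. Only the group with Torin1 reached 10 counts in every library, so that call is not independent of the filter. The value in 4 h fed cells passed with limma-voom (−0.63) and with only the groups compared (−0.60).

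MT1X, MT2A, MT1F and MT1E lie in a cluster of 16 genes and pseudogenes with MT1 to MT4 symbols over 119.1 kb of chromosome 16 (GENCODE release 29, GRCh38). They share exact runs of sequence. The family rows used below are those with an MT1 or MT2 symbol on any chromosome. The longest run shared by the main transcripts was 63 bases for MT1X and MT2A, 53 for MT1X and MT1F and 32 for MT1F and MT2A, so how the authors' counting split reads between them is uncertain. With the 19 family rows added up to 1 row, the log2 fold change with Torin1 was 0.58 ± 0.17 in starved cells (adjusted p = 0.00381), 0.74 ± 0.15 in 1 h fed cells (adjusted p = 5.01e-05) and −2.06 ± 0.12 in 4 h fed cells (adjusted p = 2.28e-14). The share of family counts that came from MT1X was 30.2% ± 0.52 in 4 h fed cells with Torin1 and 42.7% ± 2.36 in 4 h fed cells without it, and 14.2% ± 0.68 in starved cells with Torin1 and 7.83% ± 2.22 in starved cells without it. The share from MT1F was 16.3% ± 0.29 in 4 h fed cells with Torin1 and 6.06% ± 0.30 in 4 h fed cells without it. Levels divided by the length of the main transcript were 28.1 ± 3.52 CPM per kb for MT1X and 28.6 ± 3.13 for MT2A in 4 h fed cells with Torin1, and 165 ± 8.34 for MT1X and 114 ± 7.99 for MT2A in 4 h fed cells without it. In starved cells without Torin1 the order per length was the other way, with 1.09 ± 0.37 CPM per kb for MT1X and 6.79 ± 0.63 for MT2A. The lengths used were 450 bases for MT1X and 786 for MT2A, from GENCODE release 29. The RefSeq start of MT2A lies inside its GENCODE gene, so the MT2A length is uncertain. The order per length in 4 h fed cells without Torin1 depends on it. In CPM, before division by length, MT2A averaged 89.3 and MT1X 74.3 there. Of 8 other metallothionein genes, 7 had 0 counts in every library and MT1B had 2 counts in all.

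**Figure D3:**
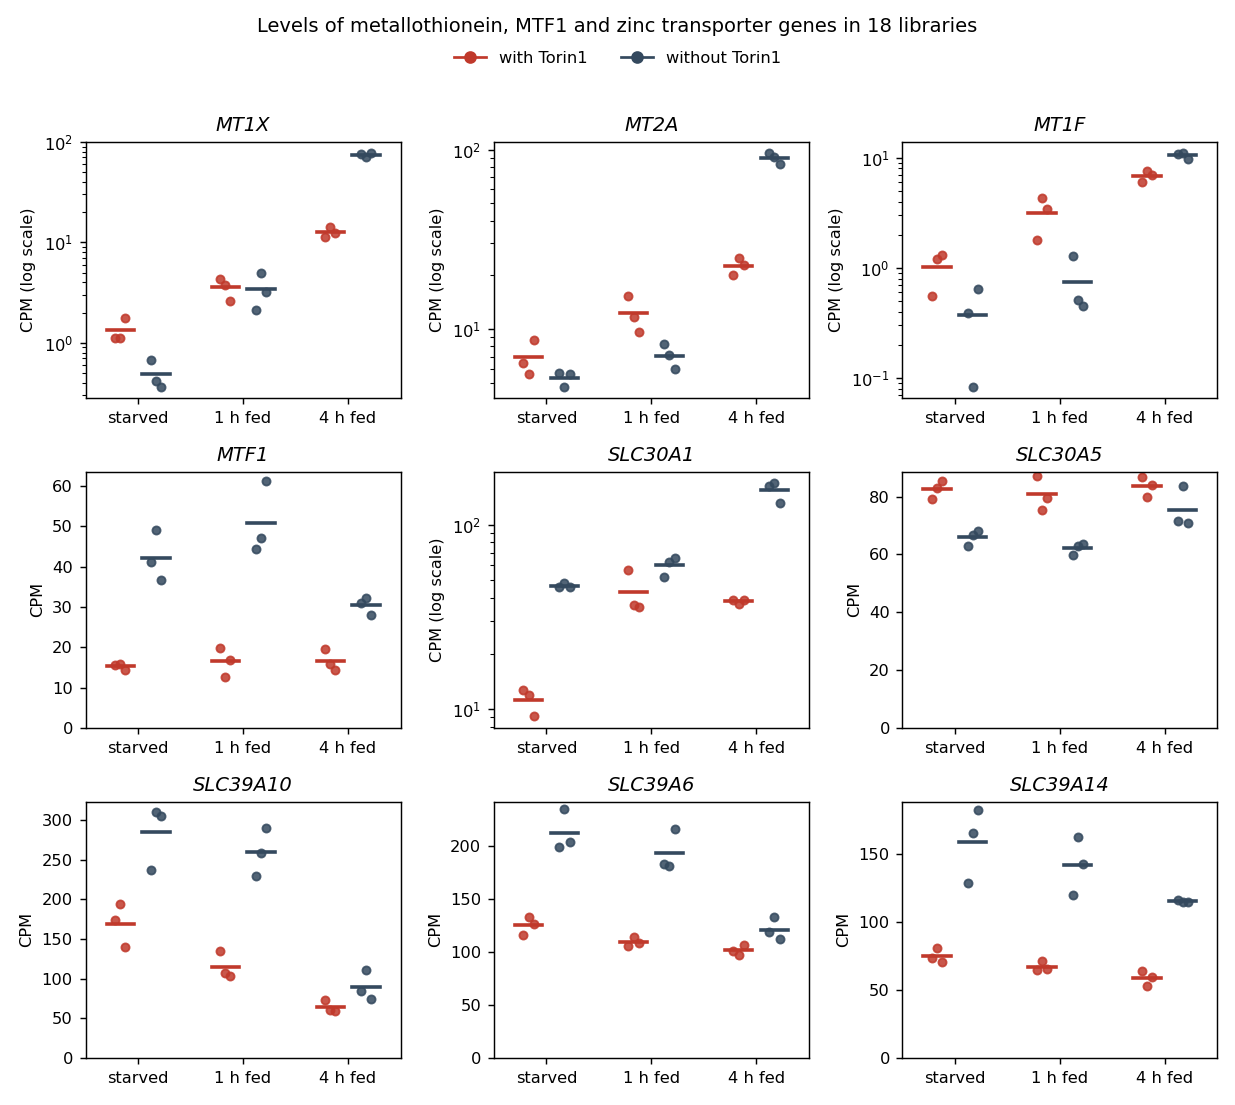
Levels in CPM of 9 genes in every library (points) with the group mean (line), in the starved, the 1 h fed and the 4 h fed state with Torin1 (left, red) and without it (right, dark); the y axis is logarithmic for MT1X, MT2A, MT1F and SLC30A1 and starts at 0 for the others. The 4 h fed libraries without Torin1 are the highest of all for MT1X, at 70.0 to 76.7 CPM.

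MTF1, the zinc-sensing activator of these promoters, was lower with Torin1 in every feeding state. It stood at 15.7, 15.8 and 14.4 CPM in starved cells with Torin1, against 41.1, 49.0 and 36.6 CPM without it. The 1 h fed values were 19.9, 12.7 and 16.9 CPM with Torin1 and 44.3, 47.1 and 61.1 CPM without it, and the 4 h fed values were 19.5, 15.9 and 14.5 CPM with Torin1 and 31.0, 32.2 and 28.0 CPM without it. The 9 libraries with Torin1 were all below the 9 libraries without it, and the 3 groups with Torin1 overlapped each other. With Torin1 the log2 fold change was −1.47 ± 0.15 in starved cells (adjusted p = 9.45e-10), −1.62 ± 0.15 in 1 h fed cells (adjusted p = 1.04e-10) and −0.87 ± 0.15 in 4 h fed cells (adjusted p = 1.38e-05). Without Torin1, MTF1 averaged 30.4 ± 2.14 CPM in 4 h fed and 42.2 ± 6.28 CPM in starved cells, the opposite order to MT1X and MT2A.

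SLC30A1 encodes ZnT1, which exports zinc across the plasma membrane. Its level was 12.7, 11.9 and 9.12 CPM in starved cells with Torin1, against 46.1, 48.2 and 45.8 CPM without it. In 1 h fed cells it was 57.1, 36.5 and 35.6 CPM with Torin1 and 51.7, 63.0 and 65.8 CPM without it, and in 4 h fed cells it was 39.0, 37.0 and 39.2 CPM with Torin1, against 161.7, 167.3 and 130.2 CPM without it. The groups were far apart in starved and 4 h fed cells and overlapped in 1 h fed cells, where replicate 1 with Torin1 was above replicate 1 without it. These levels gave a log2 fold change of −2.05 ± 0.17 in starved cells (adjusted p = 2.26e-10), −0.49 ± 0.15 in 1 h fed cells (adjusted p = 0.00574) and −1.99 ± 0.15 in 4 h fed cells (adjusted p = 8.31e-11). Without replicate 1 of 1 h fed cells with Torin1, the value in 1 h fed cells was −0.74.

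SLC30A5 encodes ZnT5, which loads zinc into the early secretory pathway. Its levels varied least of the 9 genes, with group means of 82.5 ± 3.06, 80.8 ± 6.04 and 83.6 ± 3.37 CPM with Torin1 (starved, 1 h fed and 4 h fed), and 66.0 ± 2.59, 62.1 ± 2.07 and 75.4 ± 7.13 CPM in the same states without it. The starved and 1 h fed libraries with Torin1 were all higher than those without it, and the 4 h fed groups overlapped. Torin1 changed it by 0.32 ± 0.09 (log2) in starved cells (adjusted p = 0.00171), 0.38 ± 0.09 in 1 h fed cells (adjusted p = 3.50e-04) and 0.15 ± 0.09 in 4 h fed cells (adjusted p = 0.139). The value in 4 h fed cells passed the threshold with total counts (0.31), with genes of at least 5 CPM on average (0.20) and without replicate 2 of 4 h fed cells (0.25).

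The ZIP transporters SLC39A10 (ZIP10) and SLC39A6 (ZIP6) are related zinc importers of the plasma membrane that can form a complex with each other. SLC39A10 stood at 174.3, 194.5 and 139.8 CPM in starved cells with Torin1, against 237.6, 310.8 and 304.8 CPM without it. The 1 h fed values were 134.9, 107.4 and 103.4 CPM with Torin1 and 229.3, 258.9 and 289.8 CPM without it, and the 4 h fed values were 72.6, 60.8 and 59.4 CPM with Torin1 and 84.7, 110.9 and 73.9 CPM without it. The groups did not overlap in any state, though in 4 h fed cells the highest library with Torin1 and the lowest without it were close. Its log2 fold change with Torin1 was −0.75 ± 0.16 in starved cells (adjusted p = 8.93e-04), −1.17 ± 0.17 in 1 h fed cells (adjusted p = 1.46e-05) and −0.48 ± 0.17 in 4 h fed cells (adjusted p = 0.0257). The last call was lost with total counts (−0.32), without replicate 2 or 3 of 4 h fed cells with Torin1 (−0.45 and −0.43) and without replicate 2 of 4 h fed cells (−0.28).

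SLC39A6 had group means of 125 ± 8.92, 109 ± 4.21 and 102 ± 4.97 CPM with Torin1 (starved, 1 h fed and 4 h fed), and 213 ± 19.6, 193 ± 19.7 and 121 ± 10.7 CPM in the same states without it. The 4 h fed libraries were at 100.8, 97.2 and 107.0 CPM with Torin1 and at 118.5, 132.9 and 112.0 CPM without it, which did not overlap. Its log2 fold change with Torin1 was −0.76 ± 0.09 in starved cells (adjusted p = 6.90e-09), −0.82 ± 0.09 in 1 h fed cells (adjusted p = 1.79e-09) and −0.25 ± 0.09 in 4 h fed cells (adjusted p = 0.0161). The last call was lost with total counts (−0.09), without replicate 2 of 4 h fed cells with Torin1 (−0.22) and without replicate 2 of 4 h fed cells (−0.16). SLC39A14 (ZIP14), which takes up zinc, manganese and iron, had means of 74.9 ± 5.20, 67.2 ± 3.80 and 58.8 ± 5.33 CPM with Torin1 (starved, 1 h fed and 4 h fed), and 159 ± 27.5, 142 ± 21.4 and 115 ± 1.08 CPM in the same states without it. Its 9 libraries with Torin1 were all below its 9 libraries without it. The change on the log2 scale was −1.08 ± 0.11 in starved cells (adjusted p = 8.64e-10), −1.08 ± 0.11 in 1 h fed cells (adjusted p = 1.17e-09) and −0.97 ± 0.11 in 4 h fed cells (adjusted p = 1.65e-08).

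The levels across feeding are a description, since earlier results of the feeding comparisons were known when the genes were chosen. Without Torin1, the 4 h fed libraries did not overlap the starved libraries for any of the 9 genes, 5 higher and 4 lower, where 49.0% of all genes tested did not overlap. The log2 fold change of 4 h fed over starved cells was 7.23 ± 0.27 for MT1X, 4.07 ± 0.17 for MT2A, 4.82 ± 0.43 for MT1F, 1.71 ± 0.14 for SLC30A1 and 0.19 ± 0.09 for SLC30A5, where SLC30A5 stood at 0.09 without replicate 2 of 4 h fed cells. It was −0.48 ± 0.14 for MTF1, −1.66 ± 0.17 for SLC39A10, −0.81 ± 0.09 for SLC39A6 and −0.46 ± 0.11 for SLC39A14. With Torin1, 7 of the 9 genes did not overlap between 4 h fed and starved cells, where 21.3% of all genes tested did not, and the ranges of MTF1 and SLC30A5 overlapped. The log2 fold change under Torin1 was 3.26 ± 0.24 for MT1X, 1.70 ± 0.16 for MT2A, 2.75 ± 0.37 for MT1F and 1.76 ± 0.16 for SLC30A1. It was 0.12 ± 0.16 for MTF1, 0.02 ± 0.09 for SLC30A5, −1.40 ± 0.17 for SLC39A10, −0.30 ± 0.09 for SLC39A6 and −0.35 ± 0.11 for SLC39A14. The difference between these fold changes, with Torin1 minus without, was −3.98 ± 0.45 for MT1X, −2.37 ± 0.24 for MT2A, −2.07 ± 0.62 for MT1F and 0.05 ± 0.22 for SLC30A1. SLC30A1 had near-equal fold changes on feeding with and without Torin1, from a starved level that was 4.13-fold lower with Torin1.

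**Figure D4:**
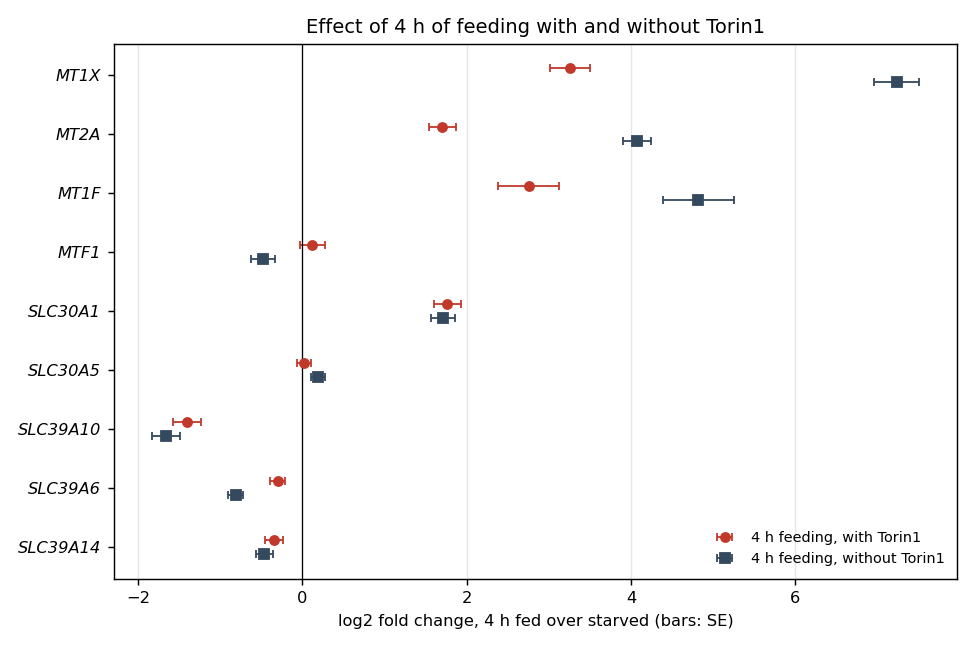
The log2 fold change of 4 h fed over starved cells (x axis, bars give the SE) of 9 genes with Torin1 (circles) and without it (squares), each from 3 libraries against 3. MT1X lies at 3.26 with Torin1 and 7.23 without it, while SLC30A1 lies at 1.76 with Torin1 and 1.71 without it.

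By 1 h of feeding without Torin1, the ranges of MT1X, MT2A and SLC30A1 lay above those of starved cells and those of the other 6 genes overlapped, where 12.3% of all genes tested did not overlap. The log2 fold change at 1 h was 2.82 ± 0.36 for MT1X, 0.41 ± 0.19 for MT2A and 0.37 ± 0.15 for SLC30A1. With Torin1, where 22.6% of all genes did not overlap, 1 h fed cells lay above starved cells for MT1X (1.43 ± 0.28), MT2A (0.82 ± 0.17), MT1F (1.65 ± 0.39) and SLC30A1 (1.92 ± 0.16), and below them for SLC39A10 (−0.56 ± 0.17) and SLC39A6 (−0.20 ± 0.09). Between 1 h and 4 h with Torin1, SLC30A1 stayed within overlapping ranges, at −0.16 ± 0.15, while without Torin1 it was 1.35 ± 0.14 higher at 4 h than at 1 h. The MT1X fold change at 1 h without Torin1 counts all its isoforms together, and their counts differed among the 1 h fed libraries without Torin1. MT1X-204, annotated as an intron-retaining transcript, had 1, 27 and 16 counts there, or 4.35%, 45.8% and 44.4% of the MT1X counts, beside 22, 26 and 20 counts of the spliced MT1X-201. In 1 h fed cells with Torin1 MT1X-204 had 0, 2 and 1 of 51, 45 and 36 MT1X counts, of which MT1X-201 held 92.2% to 97.2%. MT1X-204 had 3 to 7 counts in 4 h fed cells with Torin1 and 5 to 8 counts in 4 h fed cells without it.

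Isoform use with Torin1 was tested for SLC30A5, SLC39A10, SLC39A6 and SLC39A14, which had 2 or more isoforms above the filter. That test called more unchanged genes on simulated counts than its threshold allows for. SLC39A14 was called in 1 h fed cells (adjusted p = 0.0493, edgeR diffSpliceDGE), where 16.2% of 10698 genes were called, and the other 11 tests were not (adjusted p from 0.225 to 0.968). In 1 h fed cells the main isoform SLC39A14-204 held 99.5% to 100% of the gene's counts with Torin1 and 97.0% to 99.2% without it. The call was lost in both alternatives, with a stricter isoform filter (adjusted p = 0.0903) and with a replicate block (adjusted p = 0.0544).

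Among 60 other genes of zinc, copper, stress and glucocorticoid lists, 48 passed the filter. With Torin1, 12 of the 48 were higher and 23 lower in starved cells, 14 higher and 26 lower in 1 h fed cells and 10 higher and 24 lower in 4 h fed cells. Each count of these lists stands beside a background in which Torin1 called 33.9% of all genes higher and 29.6% lower in starved cells, 33.2% and 29.9% in 1 h fed cells, and 27.4% and 28.6% in 4 h fed cells. The median log2 fold changes of the 48 were −0.34, −0.42 and −0.40. With total counts, the split in 4 h fed cells was 10 higher and 19 lower. The named genes of each list are those called with the largest change, at most 3 per list and feeding state.

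Of 11 other ZIP transporters 8 were tested. With Torin1, 3 were higher and 5 lower in starved and in 1 h fed cells, and 3 were higher and 4 lower in 4 h fed cells (background 63.5%, 63.1% and 56.0% called in either direction), with medians of −0.57, −0.62 and −0.35. SLC39A7 (ZIP7), which releases zinc from the endoplasmic reticulum, had the largest change of these 8 genes, at 100.3 ± 6.29 CPM in starved cells with Torin1 and 340.4 ± 34.5 CPM without it. Its log2 fold change was −1.76 ± 0.09 in starved, −1.77 ± 0.09 in 1 h fed and −1.25 ± 0.09 in 4 h fed cells (adjusted p = 1.46e-16, 1.48e-16 and 5.40e-13). SLC39A4 (ZIP4), the importer known from intestinal zinc uptake, was higher with Torin1, at 14.4 ± 2.08 CPM in starved cells with Torin1 and 5.88 ± 1.26 CPM without it, a log2 fold change of 1.30 ± 0.22 (adjusted p = 5.84e-06). SLC39A4 was also higher in 1 h fed cells (1.26 ± 0.22, adjusted p = 1.08e-05). SLC39A8 (ZIP8), a zinc and manganese importer, was lower in starved and 4 h fed cells (−1.16 ± 0.10 and −1.02 ± 0.10), SLC39A3 was lower in 1 h fed cells (−1.17 ± 0.11) and SLC39A11 was higher in 4 h fed cells (0.95 ± 0.17).

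A list of 9 genes held the other ZnT family genes and the zinc efflux protein gene TMEM163, and 8 of the 9 were tested. With Torin1, 1 was higher and 1 lower in starved cells, 1 higher and 2 lower in 1 h fed cells, and 2 higher and 2 lower in 4 h fed cells, SLC30A2 among the lower, with medians of 0.18, 0.03 and −0.06. With total counts, 3 were higher in starved and in 1 h fed cells. SLC30A7 (ZnT7), which loads zinc into the Golgi, was lower in all 3 states, with log2 fold changes of −1.09 ± 0.12, −1.29 ± 0.12 and −1.16 ± 0.12. TMEM163 was higher in all 3, at 1.61 ± 0.27, 1.35 ± 0.27 and 1.60 ± 0.28, from levels of 5.04 to 6.82 CPM with Torin1 and 1.25 to 2.86 CPM without it. SLC30A10, a manganese exporter, was lower in 1 h fed cells (−1.66 ± 0.55, adjusted p = 0.00985). Its levels there were low, at 0.257, 1.26 and 0.647 CPM with Torin1 and 2.94, 2.29 and 1.70 CPM without it. Replicate 1 with Torin1 was at the counting limit. SLC30A2 (ZnT2), a vesicular zinc transporter, was near the counting limit, at 0.214, 0.533 and 0.873 CPM in 4 h fed cells with Torin1 and 1.93, 1.34 and 2.25 CPM in 4 h fed cells without it, and at 0.0919 CPM or 0 in starved cells without Torin1. It passed the filter on low counts through the 4 h fed libraries without Torin1, where it was high, so its calls against that group are not independent of the filter.

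**Figure D5:**
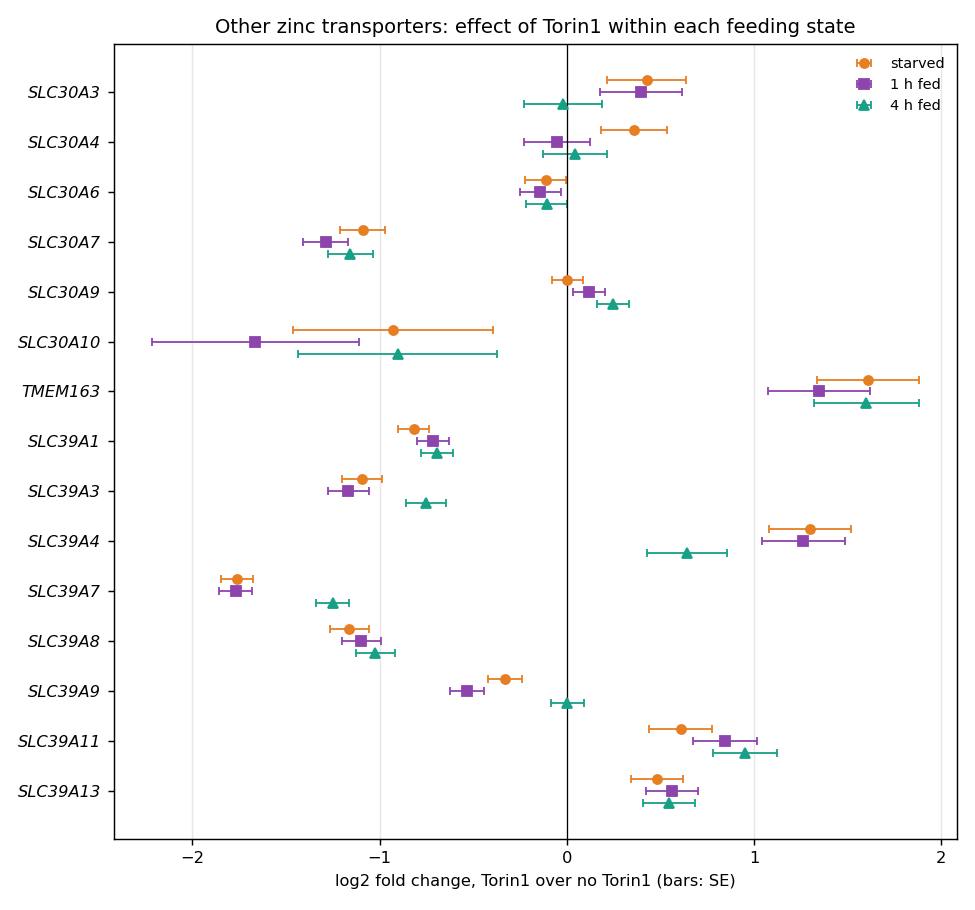
The log2 fold change of Torin1 over no Torin1 (x axis, bars give the SE) of 15 other zinc transporter genes in starved (circles), 1 h fed (squares) and 4 h fed cells (triangles), each from 3 libraries against 3; SLC30A2, near the counting limit, is not drawn. SLC39A7 lies at −1.76, −1.77 and −1.25 and TMEM163 at 1.61, 1.35 and 1.60.

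Of 6 zinc-sensing genes and cofactors of MTF1, all were tested, and with Torin1 3 were higher and 2 lower in starved cells, 3 higher and 3 lower in 1 h fed cells and 2 higher and 1 lower in 4 h fed cells. ZNF658, a zinc-finger regulator of ZnT and ZIP genes, stood at 7.20 ± 1.39 CPM in starved cells with Torin1 and 1.90 ± 0.28 CPM without it. Its log2 fold change was 1.92 ± 0.26 in starved, 2.47 ± 0.27 in 1 h fed and 0.57 ± 0.23 in 4 h fed cells (adjusted p = 2.06e-07, 3.04e-09 and 0.0328). GPR39, a zinc-sensing receptor of the cell surface, was higher in all 3 states (1.27 ± 0.19, 1.47 ± 0.19 and 0.90 ± 0.19). SP1, a factor that acts with MTF1, was lower in starved and 1 h fed cells (−0.97 ± 0.10 and −1.09 ± 0.10), and the coactivator EP300 was lower in 4 h fed cells (−0.21 ± 0.09).

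Against the same background of 63.5%, 63.1% and 56.0% of all genes called, 9 of 9 copper handling genes were tested, and with Torin1 2 were higher and 4 lower in starved cells, 3 higher and 5 lower in 1 h fed cells and 1 higher and 4 lower in 4 h fed cells. The copper importer SLC31A1 was lower in all 3 states (−0.95 ± 0.09, −1.0 ± 0.09 and −0.89 ± 0.09), and CCS, the copper chaperone of superoxide dismutase, was higher in starved and 4 h fed cells (1.15 ± 0.16 and 0.61 ± 0.15). In the metal and oxidative stress list, 9 of 9 genes were tested, and 1 was higher and 7 lower with Torin1 in starved and in 1 h fed cells, and 8 were lower in 4 h fed cells, with medians of −1.63, −1.61 and −0.97, where 29.6%, 29.9% and 28.6% of all genes were lower. DNAJB1, a heat shock cochaperone, was lower in starved and 1 h fed cells (−2.82 ± 0.13 and −2.48 ± 0.13). HSPA1A and HSPA1B, near-identical heat shock genes whose counts are uncertain, were lower in the same states (−2.65 and −2.02 for HSPA1A, and −3.30 and −2.91 for HSPA1B). HMOX1, heme oxygenase, stood at 7.30 ± 0.64 CPM in 4 h fed cells with Torin1 and 33.9 ± 3.91 CPM without it (−2.22 ± 0.21, adjusted p = 2.22e-09), and GCLM (−1.64 ± 0.11) and SRXN1 (−1.25 ± 0.11) were also lower there.

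Metallothionein genes also respond to glucocorticoids, so genes of that response were listed. All 8 were tested, and with Torin1 2 were higher and 4 lower in starved cells, 3 higher and 4 lower in 1 h fed cells and 2 higher and 5 lower in 4 h fed cells, against 63.5%, 63.1% and 56.0% of all genes called. PER1 was lower in all 3 states (−1.31 ± 0.11, −1.31 ± 0.11 and −1.46 ± 0.11), as was SGK1 (−1.73 ± 0.28, −1.47 ± 0.26 and −1.28 ± 0.26). DUSP1 was lower in starved cells (−1.18 ± 0.19), ZBTB16 was higher in 1 h fed cells (0.91 ± 0.24) and TSC22D3 was higher in 4 h fed cells (0.93 ± 0.24).

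The same 48 genes were tested for feeding. At 1 h without Torin1 edgeR called 0 of the 48, where 0.646% of all genes were called. An unadjusted p under 0.05 was reached by 5 of the 48 and by 1525 of all 16414 genes tested. The DESeq2 Wald test called 1 of the 48 and limma-voom 0. At 4 h, 11 were higher and 18 lower than in starved cells, where 23.2% of all genes were called higher and 19.1% lower. Of the 8 other ZIP genes 5 were lower in 4 h fed cells than in starved cells and the remaining 3 did not pass, led by SLC39A7 (−0.70 ± 0.08, adjusted p = 4.94e-08), SLC39A8 (−0.53 ± 0.10) and SLC39A9 (−0.37 ± 0.09). These counts were the same under either other scaling (DESeq2 size factors or total counts), and 0 were higher at an unadjusted p under 0.05. Of the other ZnT genes, SLC30A9 was lower (−0.26 ± 0.09), and the 1 higher call was SLC30A2, which passed the filter through that group. ZNF658 was higher (1.73 ± 0.27), as was CREBBP (0.53 ± 0.08), and SP1 was lower (−0.84 ± 0.10). The heat shock genes DNAJB1 (−2.24 ± 0.13), HSPA1A (−2.30 ± 0.55) and HSPA1B (−2.34 ± 0.22) were lower, within a list in which 4 genes were higher and 5 lower. With Torin1, 2 of the 48 genes were called at 4 h of feeding, where 1.80% of all genes were called, SLC39A8 lower (−0.39 ± 0.11, adjusted p = 0.0496) and the glucocorticoid receptor gene NR3C1 higher (0.44 ± 0.11, adjusted p = 0.0229).

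The correlations that follow run over the 18 libraries on log2 CPM, which share the 6 groups and their scaling, and are a description. MT1X went with MT2A (r = 0.959) and MT1F (r = 0.867), less closely with SLC30A1 (r = 0.653), and ran against SLC39A10 (r = −0.742). MT1X and its activator MTF1 had r = −0.099. MTF1 went with SLC39A14 (r = 0.898) and SLC39A6 (r = 0.841), and SLC39A10 with SLC39A6 (r = 0.895). Among 11696 genes of at least 5 CPM on average, leaving out those of the 10, the genes most like MT1X included ZNF746 (r = 0.939), TAF8, CYREN and POLR2A (r = 0.934). POLR2A, the largest subunit of RNA polymerase II, averaged 308.6 CPM in 4 h fed cells with Torin1 and 534.1 CPM in 4 h fed cells without it. Those most like SLC39A10 were SELENOI (r = 0.956), NXPE3, ARSK, SQLE and SLC38A2 (r = 0.929). SQLE, an enzyme of cholesterol synthesis, averaged 267.4 CPM in starved cells with Torin1 and 330.6 CPM in starved cells without it.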

How the data were processed

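RNA sequencing of HEK-293E cells gave 18 libraries in 6 groups of 3. Per the labels, the authors extracted RNA with TRIzol, treated it with DNase I and aligned reads with STAR, and the labels name RSEM and DESeq2, without versions. The deposited gene table holds expected counts, estimated per gene, and the deposited isoform table holds counts per transcript as whole numbers. The labels name a C. elegans build, whereas the identifiers are human, so the human build, the annotation and the use of strand are taken as not given in the sources. Of gene values, 3.32% were not whole.

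Gene counts were rounded, kept by filterByExpr (minimum count 10; 16414 genes), scaled by TMM and fitted in edgeR 4.0.16 (R 4.3.3, limma 3.58.1) with 1 mean for each of the 6 groups. Robust quasi-likelihood tests had 12 residual degrees of freedom, and the spread between replicates was 10.6%. The threshold was 0.05 after Benjamini-Hochberg adjustment over all genes tested. Log2 fold changes are given with SE. Isoform use was tested with diffSpliceDGE; it and the gene test were tested on simulated data, and the isoform test called more unchanged genes than its threshold allows for. Isoform names are those of GENCODE release 29, and promoters are from RefSeq. Alternatives were DESeq2 1.42.0 size factors and Wald test, limma-voom, total counts, other filters, only the groups compared, the metallothionein rows added up, a replicate block and leaving out each library.

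The 10 genes and the other lists were chosen with earlier results of these data known. All 10 were named, and of each other list at most 3 called genes with the largest absolute log2 fold change per comparison. For MT1X and SLC39A10 the 5 genes of highest correlation were taken, of which 1 is not reported here.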

Additional observations from a re-analysis of the deposited data

Results flagged for a closer look

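For each of 3 metallothioneins, the log2 fold change with Torin1 had opposite signs in a pair of feeding states in which the groups did not overlap, and the difference itself was not tested. In the remaining state, 1 h fed for MT1X (all isoforms together) and starved for MT2A and MT1F, the groups overlapped. For MT1X the log2 fold change was 1.42 in starved cells and −2.55 in 4 h fed cells. For MT2A it was 0.77 in 1 h fed cells and −1.99 in 4 h fed cells. For MT1F it was 2.09 in 1 h fed cells and −0.63 in 4 h fed cells, and that last value did not pass the threshold. These 3 genes had been named for the feeding comparisons, which use the same libraries without Torin1. The signs are therefore not independent of how the genes were chosen.

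In the other lists, the test of the interaction at 4 h (the log2 fold change of feeding with Torin1 minus that without it) called 13 of 48 genes, 7 positive and 6 negative, where 25.8% of all genes were called. Its adjusted p-values are from edgeR. The difference was 0.51 for the importer SLC39A7 (adjusted p = 0.00179). It was −1.35 for ZNF658, 0.84 for SP1 and −0.45 for CREBBP. For the copper exporter ATP7A it was 0.80. In the metal and oxidative stress list it was 2.32 for DNAJB1, 2.08 for HSPA1B and −1.42 for GCLC (adjusted p = 4.15e-09, 2.29e-04 and 1.69e-09). For the glucocorticoid-responsive genes KLF9 and FKBP5 it was 0.46 and −0.42.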

How the results depend on the processing

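Over all alternatives run, 362 Torin1 values of the 9 genes kept their direction and side of the threshold, 11 lost the call and 10 gained it, and those that moved are given with the genes. The count of the 9 genes called ranged from 7 to 8 in starved, from 8 to 8 in 1 h fed and from 5 to 7 in 4 h fed cells when a library was left out. With the metallothionein rows added up, the difference between the 1 h feeding effects with and without Torin1 was 0.16, against −1.39 for MT1X alone. The sum holds other genes by construction, and the MT1X counts of 1 h fed cells hold MT1X-204 in unequal shares with and without Torin1. Of the feeding values, 9 of MT1X and MT2A moved beyond the spread between replicates, all with that sum, such as 4.81 for 4 h feeding. For 1 h feeding, 106 genes in all were called, 167 with the DESeq2 Wald test, 164 with no filter, 39 with only the groups compared, and 55 to 248 without a library, the highest without replicate 1 of 1 h fed cells and at most 66 without each of the other 5; of the listed genes, 0 were called, 1 with the Wald test and 0 to 2 without a library. For 4 h feeding under Torin1, 296 genes in all were called, 491 with the Wald test, 640 with only the groups compared and 134 to 189 without a library; of the listed genes 2 were called, 1 with DESeq2 size factors, 1 with limma-voom and 0 to 1 without a library. The cause of these changes was not tested. Replicate numbers were not taken to pair libraries, since not every same-numbered pair correlated above 0.1 (lowest −0.108), though the median correlation of deviations was 0.064, 0.011 and 0.021 for numbers 1, 2 and 3 and −0.020 between different numbers, and 11 of 18 libraries were closest to their own number. With a replicate block, Torin1 calls covered 8, 8 and 7 of the 9 genes, as many as without it, and the count over all genes for 4 h feeding under Torin1 was 398. Depth limits MT1X and MT1F in starved cells, with 4 to 7 and 1 to 7 counts a library without Torin1.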
